A study of Xenopus laevis with 28 samples.

Results

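Bone morphogenetic proteins (Bmps), growth and differentiation factors (Gdfs, with Vg1) and their receptors, Smad transducers and secreted antagonists were followed through early development of the frog Xenopus laevis. Gene models were taken by name: those whose symbol begins with bmp or gdf and a number, vg1, smad, acvr, tgfb, chrd, nog, fst, tll1 or tll2, szl or bmpr. The rule found 114 of the 45831 gene models with a deposited value. Names alone decided, so 4 models of other genes entered as well (the kinase bmp2k and the receptor-associated tgfbrap1-like, each in an L and an S copy). They are not ligands, receptors, Smads or secreted antagonists. The suffixes L and S stand for the long and short chromosome sets of this allotetraploid species, and a gene with both has 2 homeologous copies.

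The series measured polyadenylated RNA of whole J strain eggs and embryos by sequencing that did not keep the strand. Unfertilized eggs and 10 stages of Nieuwkoop and Faber (8, 9, 10.5, 12, 15, 20, 25, 30, 35 and 40, from blastula to tadpole) were sampled from 2 clutches, called Taira and Ueno, with 1 library for each clutch and stage. The Ueno set also held oocytes of classes 1-2, 3-4 and 5-6 and a second series of stages 8, 10 and 35, none of them replicated. The labels name no mutation, transgene or treatment for any group. The deposited values are transcripts per 1000000 (TPM), which are scaled for transcript length and so allow levels of different genes to be compared. They keep no read counts, so the depth behind each value is unknown. Pairs of TPM values below are always Taira and then Ueno (n = 2 per stage), and stage 40 has the Taira value alone.

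Bmps and Gdfs are secreted dimers that bring together type II and type I receptor kinases on the cell surface. Bmp receptors phosphorylate Smad1 and Smad9 and activin, Nodal and Vg1 receptors phosphorylate Smad2 and Smad3. Either kind of Smad then enters the nucleus with Smad4, while Smad6 and Smad7 inhibit the cascade. In the frog gastrula, Chordin, Noggin and Follistatin from the dorsal organizer bind Bmps outside the cell, Tolloid proteases cleave Chordin, and ventral Sizzled inhibits Tolloid.

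Libraries that stood apart bear on all results. The library labelled stage 40 Ueno was left out of the main fit. Over the 81 tested members its Spearman correlation was 0.952 with the Ueno egg and 0.342 with stage 40 Taira. It held the oocyte and egg transcript btg4.S at 1068 TPM, against 0 TPM in stage 40 Taira, and muscle actin actc1.L at 0.12 TPM, against 158 TPM. The stage 35 Ueno library listed 56 of the 114 members at 0 TPM, against 17 in stage 35 Taira and 16 in the stage 35 library of the second Ueno series. Of all 45831 models, 24588, 13632 and 12735 were at 0 TPM in these libraries, so the zeros were not particular to the members. The Ueno clutch had lower values than Taira in 50.9% of all tested models at stage 8 and in 75.9% at stage 35, the lowest and the highest share among the 10 stages with both clutches. At stage 20 the median log2 difference of Ueno minus Taira was -0.77 over the tested members and -0.50 over all tested models. Their part in the results was not tested. TPM values are given by clutch, and most stage changes of named members with the left-out libraries that lost the call. Libraries were not left out for the list of other pathway genes. In RNA from whole embryos, fewer cells of a type and less RNA per cell cannot be told apart. Only polyadenylated RNA was read, so every rise or fall below, also that from egg to stage 8, is one of polyadenylated RNA. A change in the poly(A) tails of stored RNA and a change in its amount cannot be told apart either.

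Of the 114 members, 81 reached 1 TPM in at least 2 of the 21 fitted libraries and were tested, and 33 stayed under 1 TPM in all 21. The untested members included bmp6, bmp8, bmp10, gdf2, gdf5, gdf7, gdf11, gdf15, acvrl1, acvr1c and chrdl1, with no copy of any of these genes reaching 1 TPM in a fitted library. By role, the tested members were 10 of 19 Bmp ligands, 10 of 18 Gdf and Vg1 ligands, 4 of 4 Tgfb ligands, 19 of 24 receptors, 17 of 18 Smads, 15 of 24 secreted antagonists, 3 of 3 Tolloid-like proteases and 3 of 4 other models. A linear model of log2(TPM + 1) with stage and clutch was fitted to all 28171 models that passed the same filter (limma, Benjamini-Hochberg adjustment over all of them, calls at an adjusted p under 0.05). Differences are later minus earlier stage on that log2 scale, ± is the standard error of the fit, and this scale understates changes of genes with low TPM. Ranges given over the alternatives cover other pseudocounts, filters, scalings and variance settings, a fit without the clutch block, the stage 40 Ueno library put back, stages 8 and 35 of the second Ueno series included, and each library of the comparison left out. With 1 library per clutch and stage, and the constant clutch difference taken out by the model, the residual spread is pooled over stages. It measures how far the stage differences disagree between these 2 clutches, library noise included. The p-values therefore do not cover the spread among other clutches. The test of clutch takes the stages as replicates of 1 clutch each. Among the 11 stages 77 of 81 members differed (F-test), where 91.6% of all tested models did. The 4 that were not called are gdf1.1, bmp2k.S, tgfbr2.L and smad4.1.S.

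**Figure D1:**
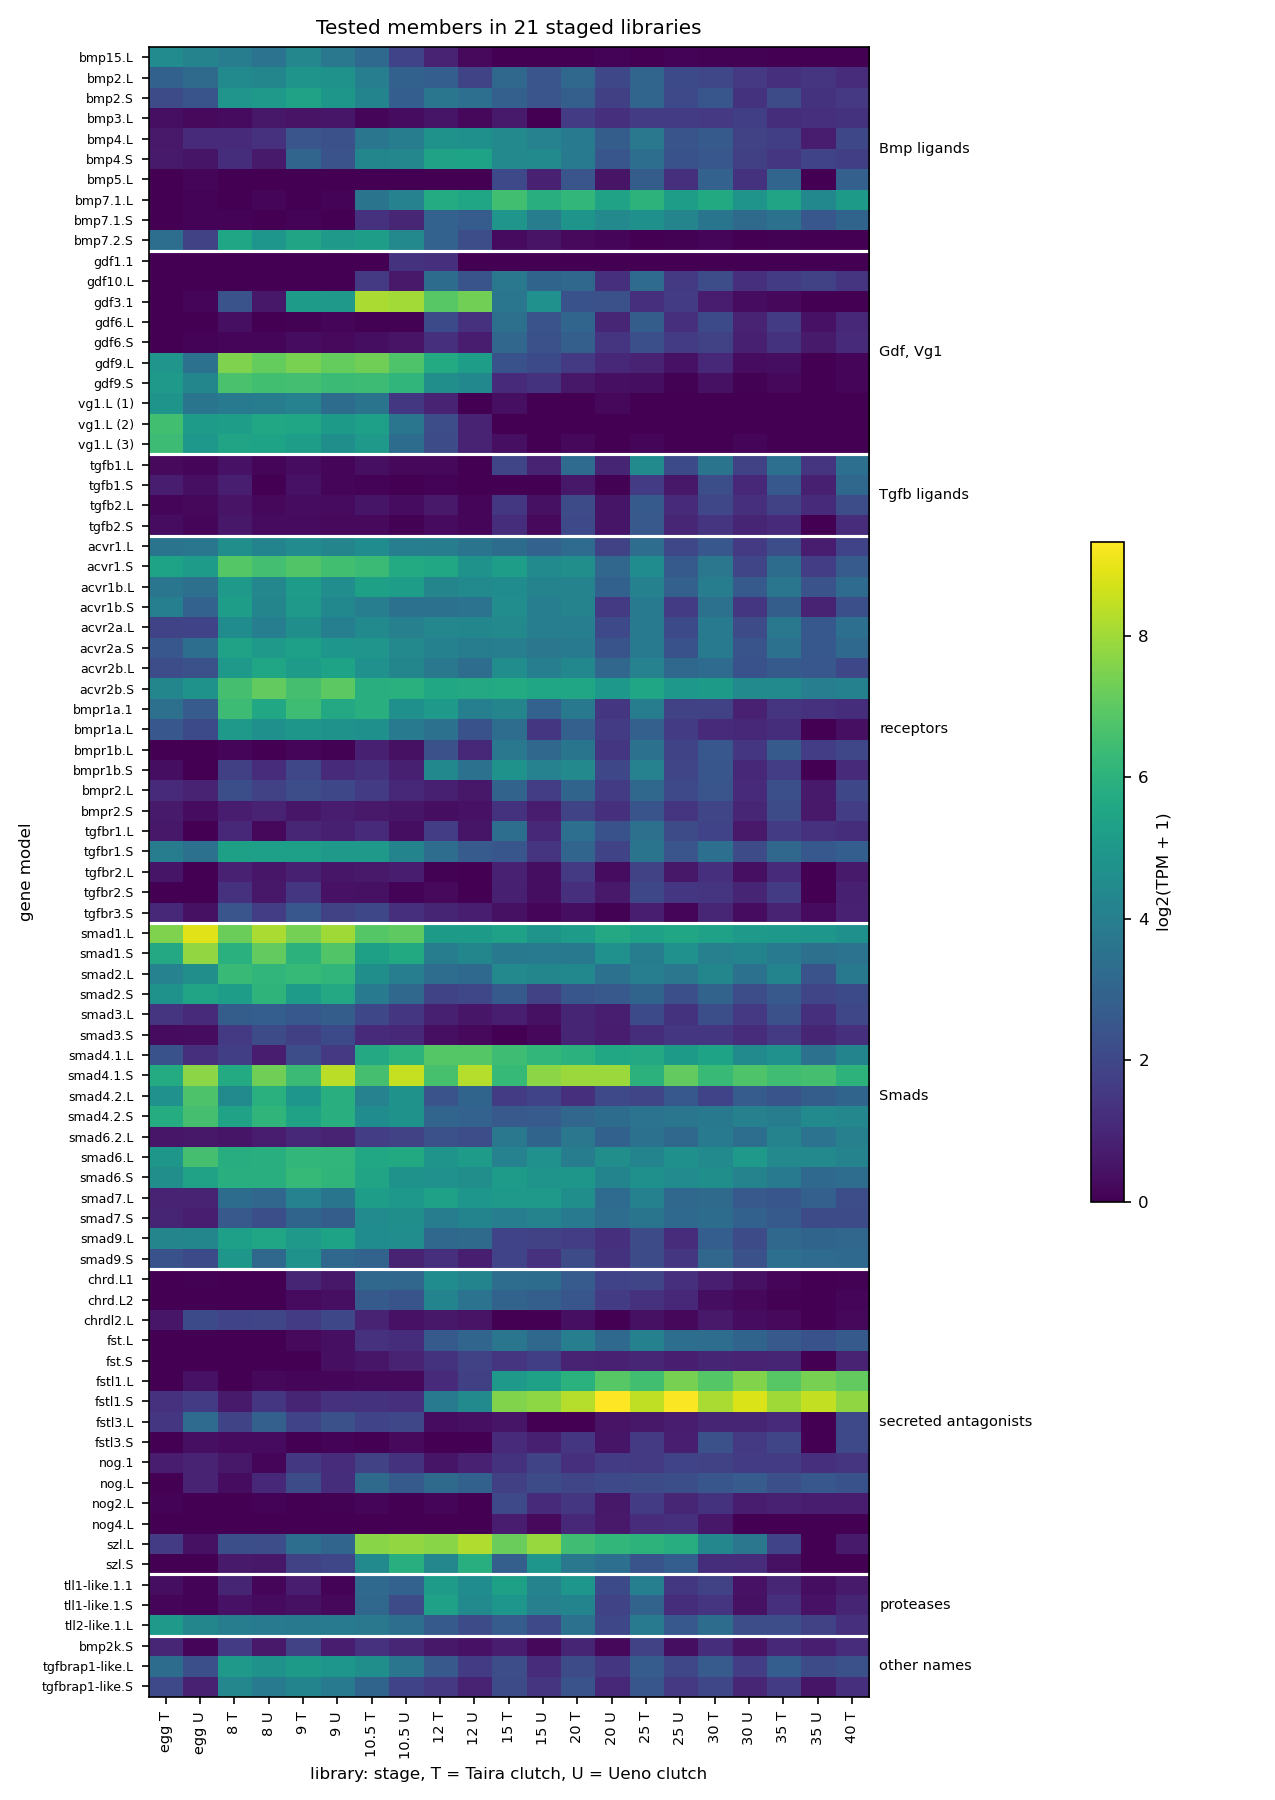
Heat map of log2(TPM + 1) for the 81 tested gene models (rows, grouped by role) in the 21 fitted libraries (columns, by stage and clutch). Gdf9, vg1, acvr and smad1 models are bright in the left columns, szl.L and gdf3.1 around stages 10.5 and 12, and fstl1 from stage 15 on.

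Between the egg and stage 8, an interval of fertilization and cleavage, receptors were the role with most called members. Of 81 members 27 rose and 0 fell, where 32.8% of all tested models were called higher, 3.71% lower and 36.5% either way. Unadjusted, 31 were higher and 0 lower at p under 0.05 (limma). Those called were 12 of 19 receptors, 7 of 17 Smads, 3 of 10 Bmp ligands, 3 of 10 Gdf and Vg1 ligands and 2 of 3 other models, with 0 of 15 antagonists (1 higher at an unadjusted p under 0.05). The median log2 difference was 0.33 over the members and 0.31 over all models. The member median was 0.02 without the stage 8 Ueno library, 0.10 without egg Taira and 0.67 without egg Ueno, and the median of all models was 0.20, 0.26 and 0.43 without these. The split depended on the scaling. With median-of-ratios scaling, which moved the median of all models to 0.00, 13 members were higher and 13 lower, and with quantile normalization 11 were higher and 7 lower. Of all 28171 tested models, 3792 were higher and 5830 lower with the first scaling, and 3601 and 3589 with the second. The sign itself turned for acvr1b.L (with both), smad9.L (with the first) and bmp2.L (with the second). The 6 receptors and 2 Smads still higher with median-of-ratios scaling stood beside 7 Smads called lower. The 7 members called higher in every alternative were gdf9.L, acvr2b.L, acvr2b.S, bmpr1a.1, bmp2.S, bmp7.2.S and tgfbrap1-like.S.

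From stage 8 to stage 9, the late blastula, 2 of 81 members rose, gdf3.1 and bmp4.S, and 0 fell, where 1.14% of all tested models were called, 1.13% higher and 0.00355% lower. Unadjusted, 7 were higher and 0 lower at p under 0.05 (limma). Only gdf3.1 kept its call when any of the 4 libraries was left out, under either other scaling, without the clutch block, and with the library labelled stage 40 Ueno.

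From stage 9 to stage 10.5, the onset of gastrulation, szl, chrd, tll1-like.1, bmp4, bmp7.1, gdf3.1 and smad7 rose while bmp2 and smad2 copies fell. Of 81 members 16 rose and 9 fell, where 15.7% of all tested models were called, 6.34% higher and 9.38% lower. The called rises were 6 of 15 antagonists, 4 of 10 Bmp ligands, 3 of 17 Smads, 2 of 3 proteases and gdf3.1. The 6 antagonist models were chrd.L1, chrd.L2, szl.L, szl.S, fst.L and nog.L, so some are models of the same gene. The called falls were 5 Smads, 3 Bmp ligands and tgfbrap1-like.S, and 0 of 19 receptors were called either way (limma, with an unadjusted p under 0.05 for 3 of them, all lower). The median difference was -0.15 over members and -0.08 over all models. Over members it was -0.04 without stage 9 Ueno, -0.11 without stage 10.5 Taira, -0.31 without stage 10.5 Ueno and -0.42 without stage 9 Taira, and over all models 0.03, 0.01, -0.25 and -0.26 without these. The 8 called in every alternative were szl.L, szl.S, smad4.1.L, bmp7.1.L, gdf3.1, chrd.L1, chrd.L2 and smad7.S. With median-of-ratios scaling the split was 15 higher and 5 lower, against 1880 and 1071 of all 28171 tested models. The count fell to 13 without the stage 9 Ueno library, to 10 without the stage 10.5 Ueno library, to 11 without the clutch block and to 13 with the library labelled stage 40 Ueno.

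From stage 10.5 to stage 15, gastrula to neural plate, vg1, gdf9, bmp15.L, bmp7.2.S and smad4.2 fell and fstl1, bmp7.1, bmpr1b and gdf6 rose. Of 81 members 17 rose and 26 fell, where 50.3% of all tested models were called, 17.9% higher and 32.4% lower. Falls were called for 6 of 10 Gdf and Vg1 ligands, 9 of 17 Smads and 6 of 19 receptors, and rises for 5 of 15 antagonists, 4 receptors and 3 Gdf ligands. The 6 falling ligand models were the 3 vg1.L models, which may share reads, both gdf9 copies and gdf3.1. Models of the same gene are not independent. In every alternative that tested them, 26 of the 43 kept their call. The stricter filter on low values left 39 of the 43 to test. The median difference was -0.22 over members and -0.21 over all models. Without stage 10.5 Taira it was -0.34 over members and -0.28 over all models, and without stage 15 Ueno -0.39 and -0.28. Without stage 10.5 Ueno it was -0.23 over members and -0.13 over all models. With median-of-ratios scaling, which moved the median of all models to 0.07, 22 members were higher and 19 lower, and with quantile normalization 21 and 21. Of all 28171 tested models, 7287 were higher and 6177 lower with the first scaling, and 6571 and 7542 with the second.

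From stage 15 to stage 25, neurula to tailbud, chrd and gdf3.1 fell in both clutches. Of 81 members 10 rose and 12 fell, where 19.2% of all tested models were called, 12% higher and 7.14% lower. With quantile normalization the split was 11 higher and 20 lower, against 3466 and 3554 of all 28171 tested models. Called in every alternative were the falls of chrd.L1, chrd.L2 and gdf3.1. The count of 22 fell to 7 without the stage 15 Ueno library, 9 without the stage 25 Ueno library, 6 without the clutch block and 5 with the library labelled stage 40 Ueno. From stage 25 to stage 35, tailbud to swimming tadpole, 2 members rose and 26 fell, where 28.4% of all tested models were called, 9.01% higher and 19.4% lower. The median difference was -0.56 over members and -0.38 over all models, which moved to -0.11 with median-of-ratios scaling (4 higher and 17 lower, and 5 and 19 with quantile normalization). Those splits are of members, and over all 28171 tested models they were 3905 and 3937, then 4231 and 4170. Without stage 35 Taira the median was -0.87 over members and -0.49 over all models. Without stage 25 Taira these were -0.41 and -0.24. The falls of szl.L and chrd.L1 were kept in every alternative, and that of nog4.L in every one that tested it. With a mean of 1.355 TPM at stage 25 and 0 TPM in both clutches at stage 35, nog4.L was too low for the filter of 5 TPM. The count of 28 fell to 7 without the stage 25 Taira library, 15 without the stage 35 Ueno library, 18 with a pseudocount of 5, and 8 without the clutch block or with the library labelled stage 40 Ueno.

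Among the Bmp ligands, bmp15 was highest in eggs, bmp7.2 and bmp2 at stages 8 and 9, bmp4 at stage 12 and bmp7.1 at stage 15. bmp15.L (gene model Xelaev18038506m) encodes a ligand known from the mammalian oocyte. bmp15.L stood at 21.7 and 16.9 TPM in eggs, 14.2 and 10.7 at stage 8, 18.9 and 12.5 at stage 9, 8.1 and 2.71 at stage 10.5, then 0.91 and 0.19 at stage 12. bmp15.L then stood at 0 and 0 TPM at stage 15, 0 and 0.06 at stage 20, 0 and 0.07 at stage 25, 0.04 and 0.04 at stage 30, 0 and 0 at stage 35, with 0 at stage 40. It was listed at 0 or close to 0 TPM in both clutches from stage 15. bmp15.L fell from stage 9 to 10.5 (1.49 ± 0.33, adjusted p = 0.00663, 0.00151 to 0.397 over the alternatives, not called without stage 10.5 Ueno or stage 9 Taira, nor with a pseudocount of 0.1 or the library labelled stage 40 Ueno) and from stage 10.5 to 15 (2.54 ± 0.33, adjusted p = 2.59e-05). Its S copy was listed at 0 TPM in all 21 libraries.

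bmp7.2.S (gene model Xelaev18020685m) is one of the bmp7 genes of the frog. bmp7.2.S stood at 9.31 and 2.57 TPM in eggs, 45.4 and 28.8 at stage 8, 42.6 and 31.8 at stage 9, 36.8 and 20.0 at stage 10.5, then 6.7 and 3.66 at stage 12. bmp7.2.S then stood at 0.2 and 0.41 TPM at stage 15, 0.19 and 0.13 at stage 20, 0 and 0.05 at stage 25, 0.08 and 0 at stage 30, 0.03 and 0 at stage 35, with 0.02 at stage 40. Both clutches were higher at stages 8, 9 and 10.5 than in eggs, and near 0 TPM from stage 15. bmp7.2.S rose from egg to stage 8 (2.61 ± 0.37, adjusted p = 0.000104) and fell from stage 10.5 to 15 (4.44 ± 0.37, adjusted p = 6.68e-07). bmp2.S (gene model Xelaev18028815m) is the copy of bmp2 with the higher mean. bmp2.S stood at 3.42 and 4.33 TPM in eggs, 28.1 and 31.6 at stage 8, 40.9 and 29.9 at stage 9, 17.3 and 5.86 at stage 10.5, then 11.6 and 9.54 at stage 12. bmp2.S then stood at 6.18 and 4.57 TPM at stage 15, 6.11 and 2.42 at stage 20, 7.24 and 3.13 at stage 25, 4.59 and 1.59 at stage 30, 3.5 and 1.58 at stage 35, with 1.96 at stage 40. bmp2.S rose from egg to stage 8 (2.67 ± 0.39, adjusted p = 0.000119) and fell from stage 9 to 10.5 (1.69 ± 0.39, adjusted p = 0.00918, 0.00186 to 0.175 over the alternatives, not called without stage 10.5 Ueno or stage 9 Ueno, nor with no clutch block). At stage 10.5 the Ueno clutch was lower than the Taira clutch. The L copy, at 27.6 and 25.9 TPM at stage 9, then 15 and 6.49 at stage 10.5, also fell from stage 9 to 10.5 (1.34 ± 0.37, adjusted p = 0.0232, 0.00572 to 0.274 over the alternatives, not called without stage 10.5 Ueno or stage 9 Ueno, nor with median-of-ratios scaling, no clutch block, a pseudocount of 0.1, quantile normalization or the library labelled stage 40 Ueno), and its rise from egg to stage 8 (1.29 ± 0.37, adjusted p = 0.0123, 0.0023 to 1 over the alternatives, not called without egg Taira or stage 8 Ueno, nor with median-of-ratios scaling, no clutch block, quantile normalization or the library labelled stage 40 Ueno) turned to -0.05 with quantile normalization.

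Bmp4, the ventralizing ligand of the gastrula, was at or under 1.2 TPM in eggs and highest at stage 12 in both clutches and both copies. bmp4.S (gene model Xelaev18041226m) gave the higher peak. bmp4.S stood at 0.59 and 0.43 TPM in eggs, 1.32 and 0.58 at stage 8, 7.3 and 4.18 at stage 9, 18.7 and 18.9 at stage 10.5, then 40.4 and 41.2 at stage 12. bmp4.S then stood at 20.0 and 20.9 TPM at stage 15, 13.6 and 4.59 at stage 20, 9.26 and 4.05 at stage 25, 4.75 and 2.37 at stage 30, 1.78 and 2.66 at stage 35, with 2.36 at stage 40. The clutches were within 1 TPM of each other at stages 10.5, 12 and 15 and apart at stage 20. bmp4.S rose from stage 8 to 9 (1.78 ± 0.39, adjusted p = 0.0432, 0.00891 to 1 over the alternatives, not called without stage 8 Taira, stage 8 Ueno, stage 9 Taira or stage 9 Ueno, nor with median-of-ratios scaling, no filter on low values, no clutch block, a pseudocount of 5, quantile normalization or the library labelled stage 40 Ueno), again from stage 9 to 10.5 (1.59 ± 0.39, adjusted p = 0.0127, 0.00418 to 0.164 over the alternatives, not called without stage 10.5 Ueno or stage 9 Ueno, nor with no clutch block or the library labelled stage 40 Ueno), and fell from stage 15 to 25 (1.57 ± 0.39, adjusted p = 0.0139, 0.00594 to 0.153 over the alternatives, not called without stage 15 Ueno or stage 25 Ueno, nor with no clutch block or the library labelled stage 40 Ueno) and 25 to 35 (1.17 ± 0.39, adjusted p = 0.0378, 0.0106 to 0.296 over the alternatives, not called without stage 25 Taira or stage 35 Taira, nor with median-of-ratios scaling, no filter on low values, no clutch block, a pseudocount of 5, quantile normalization or the library labelled stage 40 Ueno). bmp4.L followed at 4.47 and 4.02 TPM at stage 9, 11.8 and 14.2 at stage 10.5, 26 and 25 at stage 12, then 2.36 and 0.62 at stage 35. Its rise from stage 9 to 10.5 (1.41 ± 0.43, adjusted p = 0.0381, 0.0124 to 0.347 over the alternatives, not called without stage 10.5 Ueno, stage 9 Taira or stage 9 Ueno, nor with no filter on low values, no clutch block, a pseudocount of 0.1 or the library labelled stage 40 Ueno) and its fall from stage 25 to 35 (1.86 ± 0.43, adjusted p = 0.00673, 0.000836 to 0.108 over the alternatives, not called without stage 25 Taira or stage 35 Ueno) were called.

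bmp7.1.L (gene model Xelaev18043497m) became the most abundant Bmp ligand. bmp7.1.L stood at 0 and 0.06 TPM in eggs, 0 and 0.09 at stage 8, 0 and 0.07 at stage 9, 10.9 and 16.6 at stage 10.5, then 52 and 44.4 at stage 12. bmp7.1.L then stood at 89.7 and 56.7 TPM at stage 15, 71 and 40.9 at stage 20, 65.2 and 35.9 at stage 25, 49.9 and 27.2 at stage 30, 42.9 and 19.6 at stage 35, with 33.3 at stage 40. It was under 0.1 TPM in all 6 libraries up to stage 9 and above 10 TPM in both clutches at stage 10.5. bmp7.1.L rose from stage 9 to 10.5 (3.81 ± 0.38, adjusted p = 1.56e-05) and from stage 10.5 to 15 (2.32 ± 0.38, adjusted p = 0.000204, 2.26e-06 to 0.0783 over the alternatives, not called with the library labelled stage 40 Ueno). From stage 15 on the Ueno values were below the Taira values at each stage. bmp7.1.S (gene model Xelaev18046214m) came up later and lower. bmp7.1.S stood at 0 and 0.06 TPM in eggs, 0.07 and 0 at stage 8, 0.07 and 0 at stage 9, 1.51 and 0.98 at stage 10.5, then 6.56 and 5.55 at stage 12. bmp7.1.S then stood at 28 and 14.1 TPM at stage 15, 27.3 and 20.0 at stage 20, 24.8 and 18.1 at stage 25, 11.5 and 8.41 at stage 30, 10.2 and 4.73 at stage 35, with 7 at stage 40. bmp7.1.S rose from stage 10.5 to 15 (3.23 ± 0.29, adjusted p = 1.29e-06) and fell from stage 25 to 35 (1.47 ± 0.29, adjusted p = 0.00282, 0.0004 to 0.132 over the alternatives, not called with the library labelled stage 40 Ueno). The remaining tested Bmp ligands were low: bmp5.L stood at 6.59 and 1.58 TPM at stage 30, then 7.17 and 0 TPM at stage 35, and bmp3.L at 0.59 and 0 TPM at stage 15, then 2.1 and 2.11 TPM at stage 25. bmp3.L rose from stage 15 to 25 (1.3 ± 0.26, adjusted p = 0.00377, 0.0017 to 0.079 over the alternatives, not called without stage 15 Ueno).

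Among the Gdf and Vg1 ligands, vg1 was highest in eggs (Taira) or at stage 8 (Ueno), gdf9 at stage 8, gdf3.1 at stage 10.5, and gdf6 and gdf10 at stage 15. Their summed level was 610.3 and 464 TPM at stage 10.5, then 47.7 and 45.6 TPM at stage 15. Vg1 is the vegetally localized maternal ligand of the frog egg. The file holds 3 models named vg1.L, which may share reads, so their values are summed here. vg1 stood at 201 and 76.7 TPM in eggs, 91.4 and 104 at stage 8, 95.7 and 66.1 at stage 9, 79.1 and 22.5 at stage 10.5, then 7.97 and 1.7 at stage 12. vg1 then stood at 0.62 and 0 TPM at stage 15, 0.15 and 0.14 at stage 20, 0.11 and 0 at stage 25, 0 and 0.08 at stage 30, 0 and 0 at stage 35, with 0 at stage 40. In eggs the Taira value was far above the Ueno value, and the sum was near 0 TPM in both clutches from stage 15. The 3 models fell from stage 10.5 to 15 by 4.46 ± 0.46, 3.95 ± 0.43 and 2.36 ± 0.47, with calls kept in every alternative.

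gdf9.L (gene model Xelaev18017189m) encodes another ligand known from the mammalian oocyte. gdf9.L stood at 27.8 and 10.4 TPM in eggs, 181 and 138 at stage 8, 172 and 137 at stage 9, 159 and 108 at stage 10.5, then 51.6 and 35.6 at stage 12. gdf9.L then stood at 4.05 and 3.22 TPM at stage 15, 2 and 1.04 at stage 20, 0.85 and 0.36 at stage 25, 1.09 and 0.25 at stage 30, 0.26 and 0 at stage 35, with 0.12 at stage 40. It was highest at stage 8 in both clutches, above both eggs. gdf9.L rose from egg to stage 8 (3.13 ± 0.28, adjusted p = 6.31e-06), then fell from stage 10.5 to 15 (4.84 ± 0.28, adjusted p = 3.4e-08) and from stage 15 to 25 (1.54 ± 0.28, adjusted p = 0.00228, 0.0005 to 0.253 over the alternatives, not called with no clutch block, a pseudocount of 5 or the library labelled stage 40 Ueno). The rise was kept with every scaling. gdf9.S stood at 31.4 and 18.4 TPM in eggs, 98.9 and 89.9 at stage 8, 83.9 and 70.0 at stage 10.5, then 1.18 and 1.55 at stage 15. gdf9.S fell from stage 10.5 to 15 (5.04 ± 0.26, adjusted p = 1.28e-08), and its rise to stage 8 (1.92 ± 0.26, adjusted p = 6.46e-05, 3.5e-06 to 0.0848 over the alternatives, not called with median-of-ratios scaling or the library labelled stage 40 Ueno) was also called.

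gdf3.1 (gene model Xelaev18001124m), a ligand of the Vg1-like group, carries no L or S suffix. gdf3.1 stood at 0 and 0.12 TPM in eggs, 4.18 and 0.53 at stage 8, 34.1 and 31.2 at stage 9, 285 and 261 at stage 10.5, then 119 and 162 at stage 12. gdf3.1 then stood at 11.8 and 25.6 TPM at stage 15, 4.13 and 3.92 at stage 20, 1.44 and 2.05 at stage 25, 0.67 and 0.25 at stage 30, 0.16 and 0 at stage 35, with 0 at stage 40. It was highest at stage 10.5 in both clutches, and its Taira value there was the highest of any ligand model in the 21 libraries. gdf3.1 rose from stage 8 to 9 (3.58 ± 0.47, adjusted p = 0.000781) and from stage 9 to 10.5 (3.03 ± 0.47, adjusted p = 0.000584), and fell from stage 10.5 to 15 (3.89 ± 0.47, adjusted p = 1.45e-05) and from stage 15 to 25 (2.76 ± 0.47, adjusted p = 0.00154). Gdf6, a ligand of dorsal ectoderm and eye, and gdf10 rose to low levels as gdf3.1 fell. gdf6.L stood at 0.03 and 0.03 TPM at stage 10.5, 3.26 and 1.53 at stage 12, 9.99 and 4.25 at stage 15, then 7.31 and 1.02 at stage 20. gdf6.L rose from stage 10.5 to 15 (2.88 ± 0.45, adjusted p = 0.000131), as did gdf6.S (2.26 ± 0.36, adjusted p = 0.000138) and gdf10.L (2.25 ± 0.46, adjusted p = 0.00106). gdf10.L was at 2.03 and 0.55 TPM at stage 10.5, then 12.4 and 6.94 at stage 15.

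**Figure D2:**
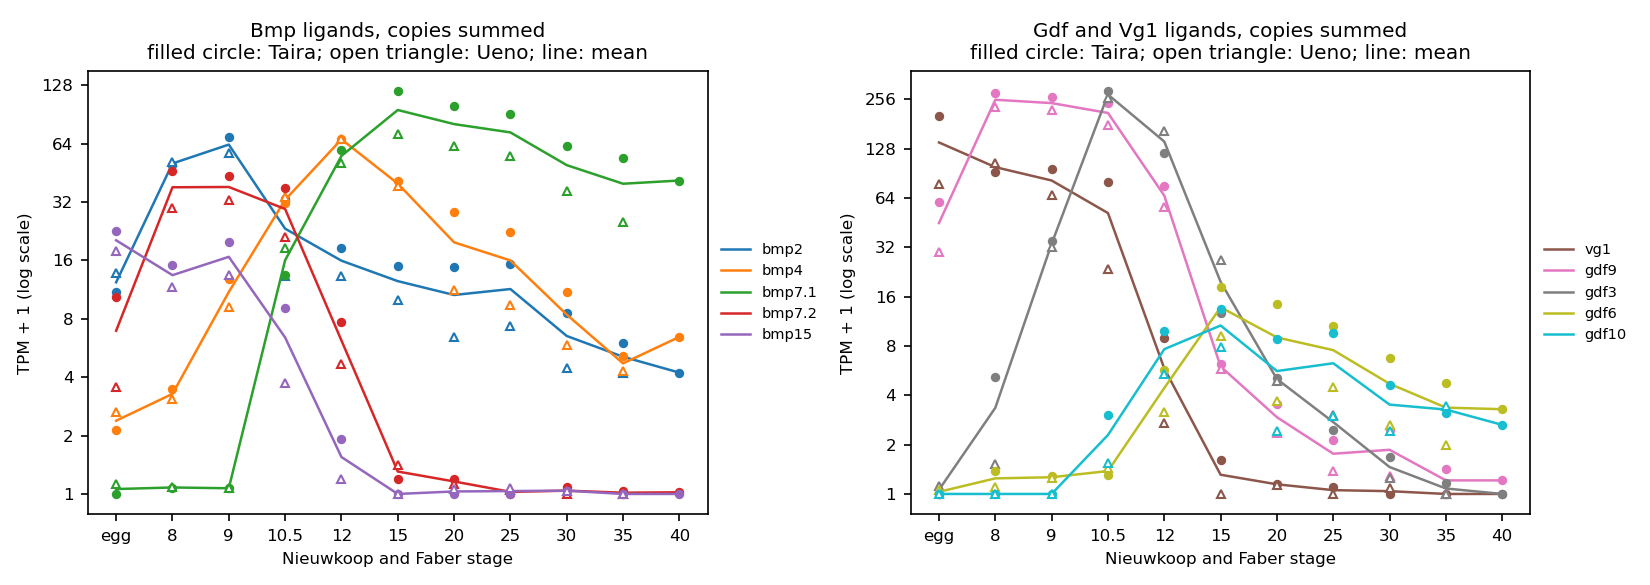
TPM + 1 on a log axis against stage for 5 Bmp ligands and 5 Gdf and Vg1 ligands, copies of a gene summed (filled circles Taira, open triangles Ueno, lines the mean of the clutches, stage 40 Taira alone). Bmp15, bmp7.2, vg1 and gdf9 decline by stage 15, gdf3 is highest at stage 10.5, and bmp7.1 stays the highest Bmp ligand from stage 15.

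The Tgfb ligands, which act on their own receptors through Smad2 and Smad3, were at or under 0.74 TPM in every library up to stage 12. tgfb1.L (gene model Xelaev18039344m) reached the highest level. tgfb1.L stood at 0.19 and 0.1 TPM in eggs, 0.36 and 0.08 at stage 8, 0.24 and 0.12 at stage 9, 0.29 and 0.15 at stage 10.5, then 0.14 and 0 at stage 12. tgfb1.L then stood at 2.91 and 0.9 TPM at stage 15, 8.61 and 0.96 at stage 20, 20.9 and 3.31 at stage 25, 10.9 and 2.6 at stage 30, 9.65 and 1.71 at stage 35, with 9.56 at stage 40. The Taira value was the higher one at all 10 stages with both clutches. tgfb1.L rose from stage 15 to 25 (1.83 ± 0.58, adjusted p = 0.0426, 0.00797 to 0.294 over the alternatives, not called without stage 15 Taira, stage 15 Ueno or stage 25 Taira, nor with no filter on low values, no clutch block, a pseudocount of 5 or the library labelled stage 40 Ueno). The 4 models summed to 33.5 and 6.02 TPM at stage 25, so the clutches lay far apart there.

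Summed receptor TPM was higher at stage 8 than in eggs and lower again at later stages. From egg to stage 8, 12 of 19 tested receptors were called higher, against 6 with median-of-ratios scaling and 5 with quantile normalization. Summed over 24 models the receptors stood at 143 and 126 TPM in eggs, 566 and 488 at stage 8, 414 and 286 at stage 10.5, 290.2 and 186 at stage 15, then 111 and 49.6 at stage 35. Of the 15 receptors with a mean of at least 5 TPM in some stage, 8 had their highest stage mean at stage 8. acvr2b.S (gene model Xelaev18032808m), a type II receptor shared by activins and Bmps, had the highest mean of the receptor models. acvr2b.S stood at 18.6 and 26.8 TPM in eggs, 93.3 and 136 at stage 8, 94.3 and 125 at stage 9, 58.7 and 59.1 at stage 10.5, then 47.2 and 49 at stage 12. acvr2b.S then stood at 51.4 and 45.1 TPM at stage 15, 44 and 30.1 at stage 20, 44.1 and 30.6 at stage 25, 33.3 and 20.6 at stage 30, 20.6 and 14.7 at stage 35, with 16.1 at stage 40. Both eggs were below all 4 libraries of stages 8 and 9. acvr2b.S rose from egg to stage 8 (2.28 ± 0.33, adjusted p = 0.000104), as did acvr2b.L (3.03 ± 0.39, adjusted p = 5.06e-05), which went from 3.6 and 3.94 TPM to 32.3 and 44.4 TPM. acvr2b.S fell from stage 25 to 35 (1.04 ± 0.33, adjusted p = 0.0306, 0.00689 to 0.242 over the alternatives, not called without stage 25 Taira or stage 35 Ueno, nor with median-of-ratios scaling, no clutch block, quantile normalization or the library labelled stage 40 Ueno). acvr2a, the related type II receptor, had 2.72 and 2.71 TPM (L) in eggs and 22.2 and 14.8 at stage 8, and it rose over that interval (2.36 ± 0.47, adjusted p = 0.00116, 0.00012 to 0.215 over the alternatives, not called with quantile normalization).

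Bmpr1a and bmpr1b are type I Bmp receptors, and they followed each other in time. bmpr1a.1 (gene model Xelaev18000668m) carries no L or S suffix. bmpr1a.1 stood at 9.96 and 5.45 TPM in eggs, 84 and 45.7 at stage 8, 85.2 and 48 at stage 9, 57.3 and 24.7 at stage 10.5, then 31.8 and 15.4 at stage 12. bmpr1a.1 then stood at 17.9 and 6.73 TPM at stage 15, 12.5 and 1.79 at stage 20, 14.3 and 2.45 at stage 25, 2.52 and 0.8 at stage 30, 1.69 and 1.53 at stage 35, with 1.36 at stage 40. Stages 8 and 9 were highest in both clutches, and Ueno was below Taira in all 10 stages with both clutches. bmpr1a.1 rose from egg to stage 8 (2.91 ± 0.43, adjusted p = 0.000131) and fell from stage 10.5 to 15 (1.68 ± 0.43, adjusted p = 0.00492, 0.0012 to 0.131 over the alternatives, not called with no clutch block, quantile normalization or the library labelled stage 40 Ueno) and from stage 25 to 35 (1.48 ± 0.43, adjusted p = 0.0217, 0.00514 to 0.278 over the alternatives, not called without stage 25 Taira or stage 35 Taira, nor with no clutch block or the library labelled stage 40 Ueno). bmpr1a.L fell from stage 10.5 to 15 in every alternative (1.84 ± 0.39, adjusted p = 0.00145), from 24.7 and 13 TPM to 8.98 and 1.81 TPM. bmpr1b.S (gene model Xelaev18009450m) went the other way. bmpr1b.S stood at 0.28 and 0 TPM in eggs, 2.39 and 1.27 at stage 8, 3 and 1.16 at stage 9, 1.61 and 0.78 at stage 10.5, then 19.7 and 10.1 at stage 12. bmpr1b.S then stood at 26.4 and 16.5 TPM at stage 15, 19.9 and 3.1 at stage 20, 16.6 and 2.88 at stage 25, 4.71 and 1.04 at stage 30, 2.24 and 0 at stage 35, with 1.19 at stage 40. It was highest at stage 15 in both clutches. bmpr1b.S rose from stage 10.5 to 15 (3.34 ± 0.46, adjusted p = 4.64e-05), as did bmpr1b.L (2.82 ± 0.45, adjusted p = 0.000157), which went from 0.75 and 0.34 TPM to 12.3 and 7.83 TPM. bmpr1b.S fell from stage 25 to 35 (2.2 ± 0.46, adjusted p = 0.00394, 0.00038 to 0.126 over the alternatives, not called without stage 25 Taira, nor with no clutch block). The type II receptor bmpr2 stayed low, at 8.5 and 2.89 TPM at stage 15, then 12.2 and 4.87 TPM at stage 25 over both copies.

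acvr1.S (gene model Xelaev18047113m) encodes a type I receptor of Bmps. acvr1.S stood at 41.8 and 34.5 TPM in eggs, 116 and 91.2 at stage 8, 110.2 and 88.7 at stage 9, 81.6 and 50.5 at stage 10.5, then 47.2 and 26.7 at stage 12. acvr1.S then stood at 36 and 21.2 TPM at stage 15, 23.1 and 7.47 at stage 20, 21.9 and 5.31 at stage 25, 11.9 and 2.83 at stage 30, 8.92 and 2.22 at stage 35, with 5.37 at stage 40. Both clutches were highest at stage 8, with Taira the higher one at all 10 stages with both clutches. acvr1.S rose from egg to stage 8 (1.41 ± 0.42, adjusted p = 0.0151, 0.00163 to 1 over the alternatives, not called without egg Taira or stage 8 Ueno, nor with median-of-ratios scaling, no clutch block or the library labelled stage 40 Ueno) and fell from stage 10.5 to 15 (1.19 ± 0.42, adjusted p = 0.0288, 0.00533 to 0.238 over the alternatives, not called without stage 10.5 Taira, stage 10.5 Ueno, stage 15 Taira or stage 15 Ueno, nor with median-of-ratios scaling, no clutch block, a pseudocount of 0.1 or the library labelled stage 40 Ueno). The L copy was at 23.5 and 17.6 TPM at stage 8. The type I receptor of activin and Nodal, acvr1b, stood at 68.6 and 36.8 TPM at stage 8, 44.7 and 32.1 at stage 15, then 17.6 and 5.17 at stage 35 over both copies. tgfbr1.S (gene model Xelaev18033321m) encodes the type I Tgfb receptor. tgfbr1.S stood at 14 and 10.3 TPM in eggs, 38.1 and 37 at stage 8, 37.6 and 32.4 at stage 9, 31.8 and 17.7 at stage 10.5, then 9.11 and 5.35 at stage 12. tgfbr1.S then stood at 4.65 and 1.69 TPM at stage 15, 7.2 and 2.79 at stage 20, 10.9 and 4.54 at stage 25, 9.63 and 3.4 at stage 30, 7.96 and 4.97 at stage 35, with 5.93 at stage 40. tgfbr1.S fell from stage 10.5 to 15 (2.67 ± 0.32, adjusted p = 1.5e-05), and rose from stage 15 to 25 (1.06 ± 0.32, adjusted p = 0.0353, 0.00816 to 0.316 over the alternatives, not called without stage 15 Taira, stage 15 Ueno, stage 25 Taira or stage 25 Ueno, nor with no clutch block, a pseudocount of 5 or the library labelled stage 40 Ueno). tgfbr1.L rose from stage 10.5 to 15 (1.5 ± 0.40, adjusted p = 0.00591, 0.000543 to 0.125 over the alternatives, not called without stage 15 Taira, nor with no clutch block), from 1.17 and 0.27 TPM to 9.41 and 1.13 TPM.

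Among the Smads, the Bmp-responsive smad1.L was highest in eggs and smad9.L and the activin-responsive smad2.L at stage 8, in both clutches. smad4.1.L and both smad7 copies rose from stage 9 to 10.5. smad1.L (gene model Xelaev18005523m) was the most abundant of the receptor-regulated Smad models found. These were models of smad1, smad2, smad3 and smad9. smad1.L stood at 182 and 481 TPM in eggs, 151 and 285 at stage 8, 167 and 253 at stage 9, 114 and 128 at stage 10.5, then 32.8 and 32.9 at stage 12. smad1.L then stood at 39.2 and 27.1 TPM at stage 15, 34.6 and 48.2 at stage 20, 40.0 and 44.2 at stage 25, 40.0 and 32.2 at stage 30, 30.5 and 29 at stage 35, with 24.9 at stage 40. The Ueno clutch was higher than the Taira clutch in eggs and at stages 8 and 9, and the clutches were close at stage 12. smad1.L fell from stage 10.5 to 15 (1.86 ± 0.38, adjusted p = 0.00102, 0.000658 to 0.0645 over the alternatives, not called with the library labelled stage 40 Ueno). smad1.S stood at 47.9 and 225 TPM in eggs and 14 and 18.6 TPM at stage 12. smad9.L (gene model Xelaev18013701m) encodes another Bmp-responsive Smad. smad9.L stood at 18.1 and 18.4 TPM in eggs, 37 and 44.5 at stage 8, 32.1 and 42 at stage 9, 22.1 and 22.6 at stage 10.5, then 7.83 and 8.37 at stage 12. smad9.L then stood at 2.69 and 2.47 TPM at stage 15, 2.23 and 1.46 at stage 20, 3.5 and 1.27 at stage 25, 5.87 and 3.49 at stage 30, 8 and 6.97 at stage 35, with 7.39 at stage 40. smad9.L fell from stage 10.5 to 15 (2.71 ± 0.32, adjusted p = 1.27e-05) and rose from stage 25 to 35 (1.41 ± 0.32, adjusted p = 0.00637, 8.93e-06 to 0.0685 over the alternatives, not called without stage 25 Ueno, nor with the library labelled stage 40 Ueno). smad9.S (gene model Xelaev18016154m) was low from stage 12 to 25 as well. smad9.S stood at 4.11 and 3.24 TPM in eggs, 29.4 and 7.7 at stage 8, 25.9 and 7.96 at stage 9, 6.9 and 0.85 at stage 10.5, then 1.44 and 0.74 at stage 12. smad9.S then stood at 2.71 and 1.51 TPM at stage 15, 3.54 and 1.56 at stage 20, 3.42 and 1.81 at stage 25, 7.41 and 4.02 at stage 30, 9.53 and 8.7 at stage 35, with 8.2 at stage 40. The Taira value was the higher one at each stage from egg to 35. smad9.S fell from stage 9 to 10.5 (2.02 ± 0.44, adjusted p = 0.00657, 0.00259 to 0.153 over the alternatives, not called without stage 10.5 Ueno or stage 9 Taira, nor with median-of-ratios scaling, no clutch block or quantile normalization) and rose from stage 25 to 35 (1.52 ± 0.44, adjusted p = 0.0218, 0.00325 to 0.206 over the alternatives, not called without stage 25 Taira or stage 35 Ueno, nor with no clutch block, a pseudocount of 5 or the library labelled stage 40 Ueno). In the main fit the 2 smad9 copies were the 2 members that rose from stage 25 to 35. With either other scaling 4 Smads were called higher.

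smad2.L (gene model Xelaev18008466m) encodes a transducer of activin, Nodal and Vg1. smad2.L stood at 16.4 and 23.7 TPM in eggs, 79.3 and 70.2 at stage 8, 75.5 and 69.7 at stage 9, 24 and 14.8 at stage 10.5, then 9.07 and 8.16 at stage 12. smad2.L then stood at 19.8 and 18.5 TPM at stage 15, 19.5 and 10.2 at stage 20, 15.1 and 11.8 at stage 25, 18.6 and 10.2 at stage 30, 17.3 and 4.24 at stage 35, with 12.5 at stage 40. Both clutches were highest at stages 8 and 9. smad2.L fell from stage 9 to 10.5 (1.89 ± 0.41, adjusted p = 0.00661, 0.0017 to 0.0867 over the alternatives, not called without stage 10.5 Ueno or stage 9 Ueno, nor with the library labelled stage 40 Ueno), together with smad2.S (1.92 ± 0.44, adjusted p = 0.00831, 0.00336 to 0.192 over the alternatives, not called without stage 10.5 Ueno or stage 9 Ueno, nor with the library labelled stage 40 Ueno), which went from 35 and 49.1 TPM to 13.7 and 7.65 TPM. smad3, its close relative, stayed low, with 7.73 and 9.33 TPM at stage 8, then 0.72 and 0.5 TPM at stage 15 over both copies. At stage 25 it stood at 4.63 and 3.35 TPM. Both copies were called higher from stage 15 to 25, with the call lost in 6 alternatives for L and 2 for S. smad3.L fell from stage 10.5 to 15 in every alternative (1.14 ± 0.30, adjusted p = 0.00608).

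Smad4, the partner of all receptor-regulated Smads, is present as smad4.1 and smad4.2. smad4.1.L (gene model Xelaev18008450m) came up at gastrulation. smad4.1.L stood at 4.12 and 1.44 TPM in eggs, 2.31 and 0.68 at stage 8, 3.63 and 1.95 at stage 9, 48.8 and 64.5 at stage 10.5, then 117 and 116 at stage 12. smad4.1.L then stood at 85.5 and 72 TPM at stage 15, 61.6 and 46.6 at stage 20, 49 and 33.1 at stage 25, 41.7 and 20.5 at stage 30, 25.6 and 10.4 at stage 35, with 17.6 at stage 40. All libraries from stage 10.5 to 40 were above the 6 earlier ones. smad4.1.L rose from stage 9 to 10.5 (3.95 ± 0.36, adjusted p = 7.32e-06) and fell from stage 25 to 35 (1.24 ± 0.36, adjusted p = 0.0216, 0.00539 to 0.203 over the alternatives, not called without stage 25 Taira, stage 25 Ueno or stage 35 Ueno, nor with median-of-ratios scaling, no clutch block or the library labelled stage 40 Ueno). smad4.1.S (gene model Xelaev18011096m) had the highest mean of all Smads and was not called among stages (adjusted p = 0.0874, limma F-test). smad4.1.S stood at 52.4 and 208 TPM in eggs, 51.5 and 157 at stage 8, 82 and 326 at stage 9, 95.3 and 364 at stage 10.5, then 95.8 and 315 at stage 12. smad4.1.S then stood at 74.2 and 208 TPM at stage 15, 239 and 245 at stage 20, 62.8 and 134 at stage 25, 77.8 and 108 at stage 30, 88.4 and 93.3 at stage 35, with 64.7 at stage 40. The Ueno value was the higher one at all 10 stages with both clutches, and the stage 20 Taira library stood above the other Taira libraries. Among the fitted libraries of each clutch, smad4.2 was highest in eggs. Over both copies it stood at 79.9 and 199.5 TPM in eggs, 68.8 and 115 at stage 9, then 7.07 and 8.08 at stage 15. Later it was higher again, at 13.7 and 16.6 TPM at stage 25, then 18.6 and 26.1 at stage 35. The S copy was called higher from stage 15 to 25, with the call lost in 5 alternatives. Both copies fell from stage 10.5 to 15 in every alternative (smad4.2.L 2.71 ± 0.37, adjusted p = 4.22e-05, and smad4.2.S 2.05 ± 0.27, adjusted p = 2.76e-05).

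Smad6 and Smad7 are the inhibitory Smads. smad7.S (gene model Xelaev18011103m) was highest at stage 10.5 in both clutches. smad7.S stood at 0.94 and 0.73 TPM in eggs, 5.01 and 3.67 at stage 8, 7.02 and 5.76 at stage 9, 21.9 and 24 at stage 10.5, then 14.2 and 17.3 at stage 12. smad7.S then stood at 14.7 and 17 TPM at stage 15, 13.7 and 8.96 at stage 20, 11.4 and 8.09 at stage 25, 8.81 and 6.45 at stage 30, 5.32 and 3.51 at stage 35, with 3.42 at stage 40. smad7.S rose from egg to stage 8 (1.53 ± 0.28, adjusted p = 0.000584, 6.03e-05 to 0.464 over the alternatives, not called with median-of-ratios scaling or quantile normalization) and from stage 9 to 10.5 in every alternative (1.7 ± 0.28, adjusted p = 0.000892). smad7.L stood at 0.84 and 0.84 TPM in eggs, 16.8 and 11.2 at stage 9, 35.2 and 30.3 at stage 10.5, then 4.63 and 6.31 at stage 35. smad7.L rose from stage 9 to 10.5 (1.19 ± 0.36, adjusted p = 0.0393, 0.0106 to 0.255 over the alternatives, not called without stage 10.5 Taira, stage 10.5 Ueno, stage 9 Taira or stage 9 Ueno, nor with no filter on low values, no clutch block, a pseudocount of 0.1 or the library labelled stage 40 Ueno). smad6 was present throughout, with 53.3 and 134 TPM in eggs, 147 and 137 at stage 9, 51.1 and 53.1 at stage 15, then 33.3 and 28 at stage 35 over both copies. The model smad6.2.L was under 1.1 TPM up to stage 9 and at 17.1 and 10.6 TPM at stage 35. smad6.2.L rose from stage 10.5 to 15 (1.61 ± 0.30, adjusted p = 0.000506, 1.43e-05 to 0.092 over the alternatives, not called with the library labelled stage 40 Ueno).

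**Figure D3:**
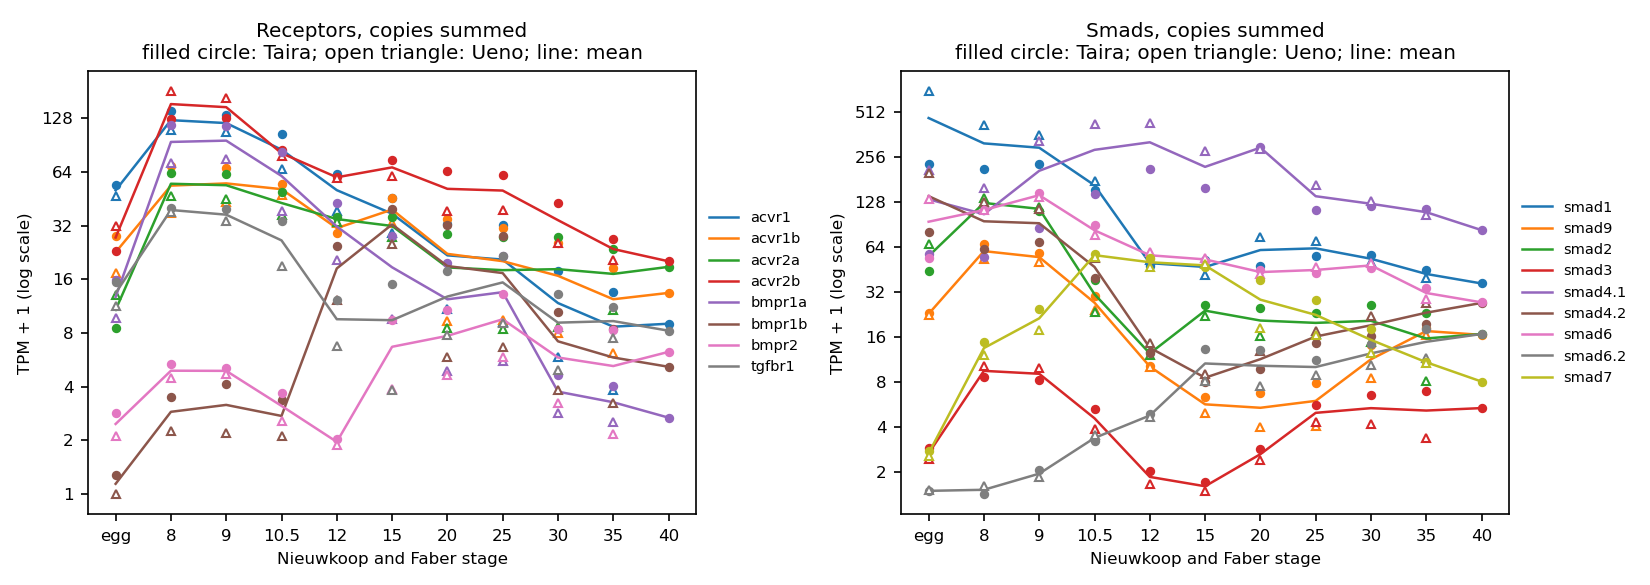
TPM + 1 on a log axis against stage for 8 receptor genes and 9 Smad genes, copies summed (filled circles Taira, open triangles Ueno, lines the mean of the clutches, stage 40 Taira alone). Most receptors are highest at stages 8 and 9, bmpr1b is highest at stage 15, and smad7 and smad6.2 are higher after gastrulation than in eggs.

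At gastrulation the summed level of the secreted antagonists was higher than at stage 9. Of the 15 tested antagonists 6 rose over that interval (models of szl, chrd, fst and nog), against 6.34% of all models. Summed over 24 models they stood at 24.7 and 23 TPM at stage 9, 255 and 310.1 at stage 10.5, then 541 and 869 at stage 25. Most of the sum at stage 10.5 came from the 2 copies of szl, at 223 and 284 TPM, against 11.7 and 10.2 TPM at stage 9. szl.L (gene model Xelaev18017689m) encodes Sizzled, the ventral inhibitor of Tolloid proteases and a target of Bmp signalling. szl.L stood at 2.13 and 0.33 TPM in eggs, 3.75 and 3.56 at stage 8, 9.23 and 7.23 at stage 9, 202 and 226 at stage 10.5, then 203 and 299.7 at stage 12. szl.L then stood at 144 and 234 TPM at stage 15, 87.8 and 72.1 at stage 20, 64.2 and 55.1 at stage 25, 18.8 and 12 at stage 30, 2.64 and 0 at stage 35, with 0.6 at stage 40. Stages 10.5, 12 and 15 were above 140 TPM in both clutches. szl.L rose from stage 9 to 10.5 (4.55 ± 0.49, adjusted p = 2.86e-05) and fell from stage 25 to 35 (4.99 ± 0.49, adjusted p = 9.57e-06). szl.L also fell from stage 15 to 25 (1.61 ± 0.49, adjusted p = 0.0352, 0.00343 to 0.34 over the alternatives, not called without stage 15 Ueno, stage 25 Taira or stage 25 Ueno, nor with median-of-ratios scaling, no filter on low values, no clutch block, a pseudocount of 0.1 or the library labelled stage 40 Ueno). szl.S (gene model Xelaev18021029m) was lower than szl.L. szl.S stood at 0 and 0 TPM in eggs, 0.58 and 0.5 at stage 8, 2.47 and 3.01 at stage 9, 21.1 and 57.4 at stage 10.5, then 18.9 and 56.2 at stage 12. szl.S then stood at 6.13 and 29 TPM at stage 15, 12.4 and 9.74 at stage 20, 4.38 and 5.97 at stage 25, 1.31 and 1.3 at stage 30, 0.34 and 0 at stage 35, with 0 at stage 40. Ueno was above Taira at stages 10.5, 12 and 15, but over all stages its clutch difference was not called (0.48 ± 0.24, adjusted p = 0.113), though it was called higher in Ueno with either other scaling. szl.S rose from stage 9 to 10.5 (3.27 ± 0.54, adjusted p = 0.000975), and fell from stage 25 to 35 (2.4 ± 0.54, adjusted p = 0.00588, 0.00117 to 0.108 over the alternatives, not called without stage 35 Ueno, nor with a pseudocount of 5). Both copies were listed at 0 TPM in stage 35 Ueno.

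Chordin is the organizer's main Bmp-binding protein. Its 2 models, chrd.L1 and chrd.L2, have consecutive numbers in the annotation and may share reads. chrd.L1 (gene model Xelaev18027420m) was the higher of them. chrd.L1 stood at 0 and 0.04 TPM in eggs, 0 and 0 at stage 8, 0.97 and 0.5 at stage 9, 7.9 and 7.39 at stage 10.5, then 22.2 and 17.3 at stage 12. chrd.L1 then stood at 9.02 and 8.79 TPM at stage 15, 5.33 and 2.66 at stage 20, 2.88 and 1.42 at stage 25, 0.71 and 0.34 at stage 30, 0.1 and 0 at stage 35, with 0.04 at stage 40. It was at 0 or near 0 TPM before stage 9 and highest at stage 12 in both clutches. chrd.L1 rose from stage 9 to 10.5 (2.33 ± 0.27, adjusted p = 4.75e-05) and fell from stage 15 to 25 (1.69 ± 0.27, adjusted p = 0.000863) and from stage 25 to 35 (1.55 ± 0.27, adjusted p = 0.000975). chrd.L2 stood at 0.22 and 0.31 TPM at stage 9, 5.29 and 4.4 at stage 10.5, 17.7 and 10.7 at stage 12, then 1.52 and 1.09 at stage 25. It was called in the same 3 comparisons, with 2.2 ± 0.27 for the rise and 1.71 ± 0.27 and 1.18 ± 0.27 for the sizes of the falls, the last lost with a pseudocount of 5.

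Noggin and Follistatin, the other organizer antagonists, were also low before gastrulation. nog.L (gene model Xelaev18043801m) was the higher noggin model. nog.L stood at 0 and 0.87 TPM in eggs, 0.25 and 1.11 at stage 8, 3.53 and 1.33 at stage 9, 8.34 and 5.24 at stage 10.5, then 8.28 and 6.54 at stage 12. nog.L then stood at 2.37 and 3.49 TPM at stage 15, 2.83 and 3.2 at stage 20, 3.49 and 3.72 at stage 25, 4.64 and 5.42 at stage 30, 3.79 and 4.78 at stage 35, with 4.05 at stage 40. Taira was highest at stage 10.5 and Ueno at stage 12. nog.L rose from stage 9 to 10.5 (1.23 ± 0.39, adjusted p = 0.0472, 0.0177 to 0.56 over the alternatives, not called without stage 10.5 Taira, stage 10.5 Ueno or stage 9 Ueno, nor with median-of-ratios scaling, no filter on low values, no clutch block, a pseudocount of 0.1, quantile normalization or the library labelled stage 40 Ueno). fst.L (gene model Xelaev18008301m) encodes Follistatin, which also binds activin. fst.L stood at 0 and 0 TPM in eggs, 0 and 0 at stage 8, 0.19 and 0.29 at stage 9, 1.52 and 1.31 at stage 10.5, then 5.29 and 7.31 at stage 12. fst.L then stood at 11.8 and 7.75 TPM at stage 15, 14.7 and 8.02 at stage 20, 16.1 and 9.3 at stage 25, 8.97 and 6.95 at stage 30, 5.15 and 4.15 at stage 35, with 5.22 at stage 40. Stage 25 was the highest stage in both clutches. fst.L rose from stage 10.5 to 15 in every alternative (2.13 ± 0.31, adjusted p = 6.7e-05). fst.L also rose from stage 9 to 10.5 (0.96 ± 0.31, adjusted p = 0.0488, 0.00452 to 0.46 over the alternatives, not called without stage 10.5 Taira, stage 10.5 Ueno, stage 9 Taira or stage 9 Ueno, nor with no filter on low values, no clutch block, a pseudocount of 5, quantile normalization or the library labelled stage 40 Ueno) and fell from stage 25 to 35 (1.24 ± 0.31, adjusted p = 0.01, 0.00149 to 0.18 over the alternatives, not called without stage 25 Taira, nor with no clutch block or the library labelled stage 40 Ueno). nog.1, nog2.L, nog4.L, fst.S, fstl3.S and chrdl2.L each stayed at or under 3.92 TPM in all fitted libraries, and fstl3.L reached 1.76 and 8.63 TPM in eggs.

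fstl1.S (gene model Xelaev18014465m), a follistatin-like secreted glycoprotein, had the highest TPM of any member. fstl1.S stood at 1.5 and 2.13 TPM in eggs, 0.58 and 1.76 at stage 8, 0.95 and 1.5 at stage 9, 1.61 and 1.39 at stage 10.5, then 13.3 and 20.8 at stage 12. fstl1.S then stood at 186 and 212 TPM at stage 15, 311 and 642 at stage 20, 348 and 617 at stage 25, 279.5 and 439 at stage 30, 256 and 356 at stage 35, with 216 at stage 40. Ueno was above Taira at each stage from 12 to 35. fstl1.S rose from stage 10.5 to 15 (6.32 ± 0.28, adjusted p = 4.9e-09), and from stage 15 to 25 (1.22 ± 0.28, adjusted p = 0.00929, 0.00348 to 0.661 over the alternatives, not called without stage 15 Ueno or stage 25 Ueno, nor with no clutch block or the library labelled stage 40 Ueno). Its egg to stage 8 difference was not called and was called lower with either other scaling. fstl1.L (gene model Xelaev18011237m) also came up after stage 10.5, at a lower level. fstl1.L stood at 0 and 0.36 TPM in eggs, 0 and 0.16 at stage 8, 0.12 and 0.12 at stage 9, 0.14 and 0.15 at stage 10.5, then 1.22 and 2.4 at stage 12. fstl1.L then stood at 31.8 and 39.4 TPM at stage 15, 61.4 and 118 at stage 20, 89.9 and 168 at stage 25, 116 and 189.7 at stage 30, 119.5 and 168 at stage 35, with 136 at stage 40. fstl1.L rose from stage 10.5 to 15 (4.99 ± 0.29, adjusted p = 3.26e-08) and from stage 15 to 25 (1.77 ± 0.29, adjusted p = 0.00111, 0.000231 to 0.526 over the alternatives, not called with the library labelled stage 40 Ueno). The 2 copies of fstl1 made up most of the summed antagonist level at stage 25, with 438 and 786 TPM.

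The Tolloid-like proteases cleave Chordin. tll1-like.1.1 (gene model Xelaev18003929m) and its relative tll1-like.1.S were gastrula and neurula transcripts. tll1-like.1.1 stood at 0.27 and 0.07 TPM in eggs, 0.95 and 0.1 at stage 8, 0.69 and 0.06 at stage 9, 8.05 and 6.62 at stage 10.5, then 35 and 22 at stage 12. tll1-like.1.1 then stood at 38.3 and 17.1 TPM at stage 15, 28.6 and 3.29 at stage 20, 15.2 and 1.84 at stage 25, 2.45 and 0.38 at stage 30, 1 and 0.27 at stage 35, with 0.61 at stage 40. Taira was above Ueno at all 10 stages with both clutches. tll1-like.1.1 rose from stage 9 to 10.5 (2.63 ± 0.55, adjusted p = 0.00483, 0.000632 to 0.102 over the alternatives, not called without stage 10.5 Ueno, nor with no clutch block or a pseudocount of 5), and fell from stage 15 to 25 (1.98 ± 0.55, adjusted p = 0.024, 0.0076 to 0.26 over the alternatives, not called without stage 15 Taira, stage 15 Ueno or stage 25 Ueno, nor with no filter on low values, no clutch block or the library labelled stage 40 Ueno) and from stage 25 to 35 (2.09 ± 0.55, adjusted p = 0.0133, 0.00336 to 0.195 over the alternatives, not called without stage 25 Taira or stage 35 Taira, nor with no clutch block or a pseudocount of 5). tll1-like.1.S stood at 0.34 and 0.15 TPM at stage 9, 7.71 and 3.53 at stage 10.5, 39.9 and 21 at stage 12, then 6.91 and 1.34 at stage 25. tll1-like.1.S rose from stage 9 to 10.5 (2.34 ± 0.46, adjusted p = 0.0031, 0.000488 to 0.0756 over the alternatives, not called with no clutch block) and fell from stage 15 to 25 (2.36 ± 0.46, adjusted p = 0.00333, 0.000303 to 0.0666 over the alternatives, not called without stage 25 Ueno, nor with no clutch block). tll2-like.1.L was highest in eggs, at 30.9 and 18.5 TPM, and stood at 14.1 and 13.4 TPM at stage 8. Its egg to stage 8 difference was not called (-0.76 ± 0.36, adjusted p = 0.127) and was called lower with either other scaling.

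**Figure D4:**
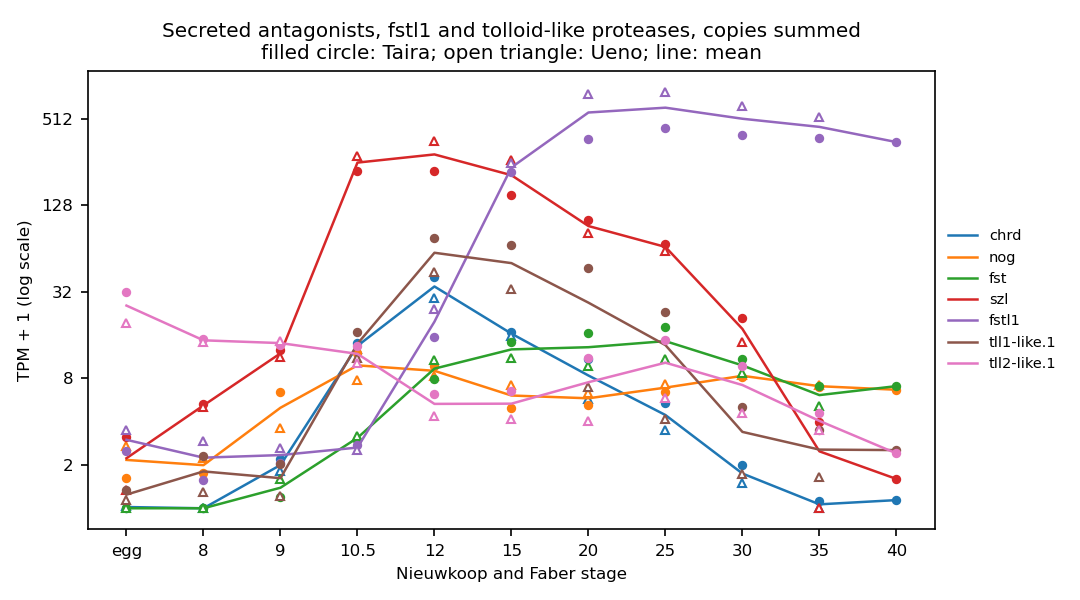
TPM + 1 on a log axis against stage for 5 antagonist genes and 2 Tolloid-like protease genes, copies summed (filled circles Taira, open triangles Ueno, lines the mean of the clutches, stage 40 Taira alone). Sizzled is highest from stage 10.5 to 15, chordin and tll1-like.1 at stage 12, and fstl1 from stage 20 on.

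Of the other models matched by name, tgfbrap1-like.L (gene model Xelaev18012965m) was a blastula transcript. tgfbrap1-like.L stood at 8.92 and 3.9 TPM in eggs, 31.5 and 26.8 at stage 8, 32.8 and 29.2 at stage 9, 24.2 and 11.8 at stage 10.5, then 5.13 and 2.11 at stage 12. tgfbrap1-like.L then stood at 3.6 and 1.25 TPM at stage 15, 3.51 and 1.76 at stage 20, 5.58 and 2.93 at stage 25, 5.36 and 2.25 at stage 30, 5.92 and 3.36 at stage 35, with 3.94 at stage 40. tgfbrap1-like.L rose from egg to stage 8 (2.11 ± 0.29, adjusted p = 7.03e-05, 3.45e-06 to 0.108 over the alternatives, not called with quantile normalization) and fell from stage 10.5 to 15 (2.48 ± 0.29, adjusted p = 9.93e-06). bmp2k.S stayed at or under 2.57 TPM and was not called among stages.

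Homeologous copies were compared by the ratio of L to S in each library. Of 47 member genes with 1 L and 1 S model, 36 reached a summed 2 TPM in at least 2 libraries. The mean log2 ratio differed from 0 in 33 of 36, with L higher in 22 and S higher in 11, where 86.9% of all 6651 such pairs were called, 51.6% with L higher and 35.3% with S higher. The median ratio was 0.49 over the member pairs and 0.20 over all pairs. The test of the mean ratio takes the stages as replicates, with the constant clutch difference taken out by the model. Its standard errors and p-values therefore do not cover the spread between clutches. The ratio differed among stages in 31 of 36 member pairs, where 86.3% of all pairs did. Because 1 TPM is added to each copy, the ratio also moves with the level of the gene. The bmp15 pair, with S at a mean of 0 TPM, was called in this way (adjusted p = 2.04e-08, limma F-test). A call among stages therefore does not by itself show a shift between the copies. Towards L, the szl pair had a mean ratio of 2.08 ± 0.08, adjusted p = 4.09e-12, the bmp7.1 pair 1.41 ± 0.07, adjusted p = 3.62e-11 and the smad1 pair 1.2 ± 0.06, adjusted p = 4.41e-11. For smad1 the ratio was not called among stages (adjusted p = 0.605), with L higher in 21 of 21 libraries. Towards S, the ratio was 2.6 ± 0.11, adjusted p = 6.66e-12 for smad4.1, 2.02 ± 0.07, adjusted p = 1.5e-12 for tgfbr1, 1.74 ± 0.06, adjusted p = 4.3e-13 for acvr2b, 1.52 ± 0.05, adjusted p = 6.57e-13 for fstl1 and 1.44 ± 0.05, adjusted p = 2.01e-12 for acvr1, given as sizes. S was higher in 21 of 21 libraries for acvr2b, fstl1 and acvr1, in 19 for smad4.1 and in 18 for tgfbr1. For these last 2 genes the mean covers ratios of L to S that moved widely with stage. The log2 ratio of tgfbr1 was -4.22 and -5.06 at stage 8, then 0.88 and -0.34 at stage 15. That of smad4.1 was -4.16 and -6.79 at stage 9, then 0.28 and -1.43 at stage 12. bmp4, gdf6 and tgfbr2 were not called in either direction, with bmp4.L at a mean of 8.4 TPM and bmp4.S at 10.5 TPM. Reads of near-identical copies may have been divided between them in the authors' counting.

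**Figure D5:**
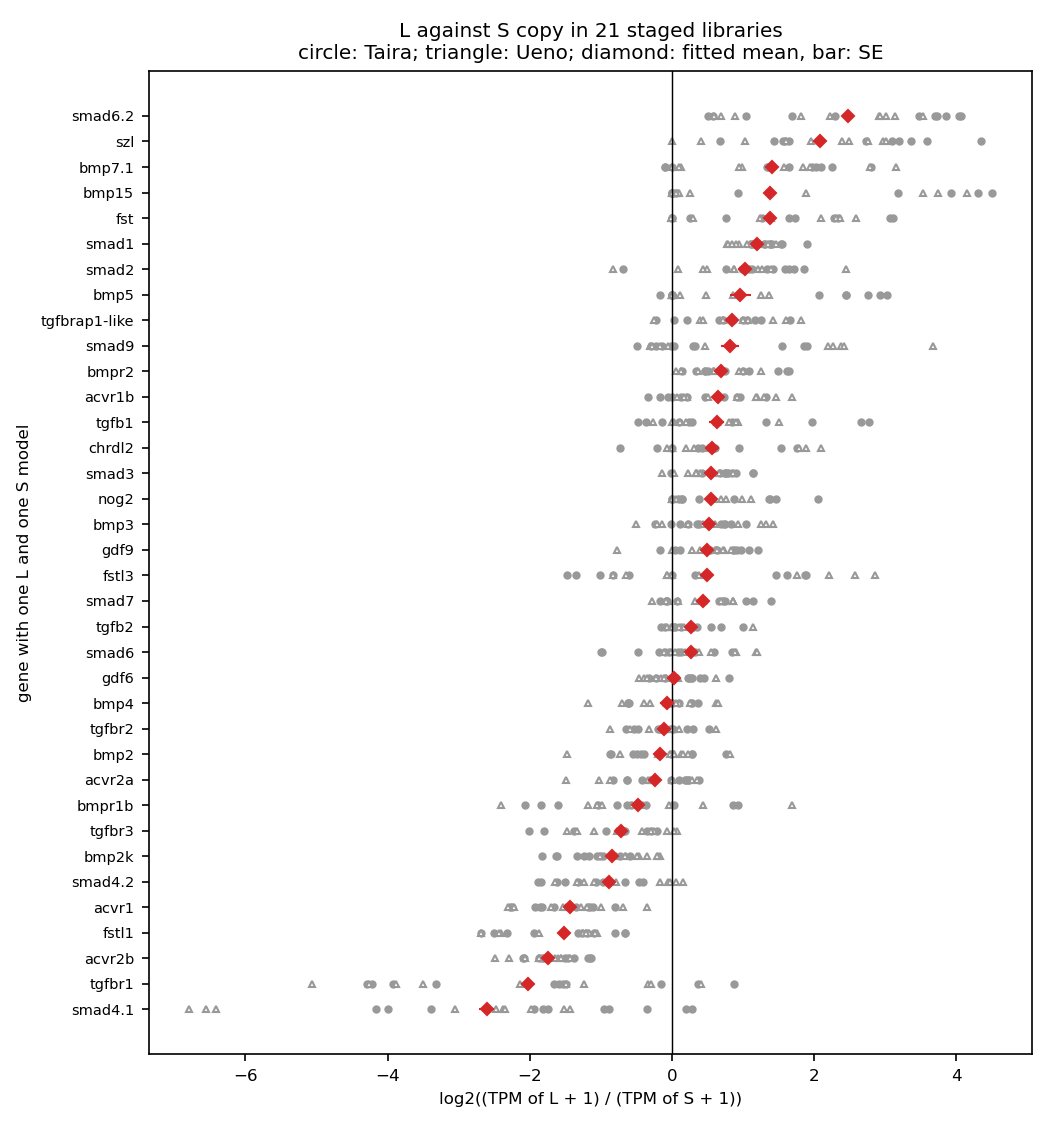
Log2 ratio of L to S copy (TPM + 1) in each of the 21 fitted libraries for 36 member genes (grey circles Taira, grey triangles Ueno), with the fitted mean and its standard error (red diamonds and bars). smad6.2 and szl lie farthest towards L, and smad4.1 and tgfbr1 farthest towards S.

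The clutches differed in 47 of 81 members, 7 higher and 40 lower in Ueno, where 51.5% of all tested models were called, 6.55% higher and 44.9% lower. Receptors were lower in Ueno in 17 of 19 cases, against 10 lower and 1 higher with median-of-ratios scaling and 7 lower and 0 higher with quantile normalization (limma). Of 17 Smads, 5 were higher and 3 lower in Ueno, against 6 and 0, then 9 and 0, with those scalings. bmpr1b.S was lower by 1.16 ± 0.21, adjusted p = 0.000557, bmpr1a.1 by 1.14 ± 0.19, adjusted p = 0.000393 and acvr1.S by 0.99 ± 0.19, adjusted p = 0.000817. The 7 members higher in Ueno were 5 Smads and the 2 fstl1 copies. smad4.1.S was higher by 1.23 ± 0.21, adjusted p = 0.000456, smad4.2.L by 0.85 ± 0.17, adjusted p = 0.000984 and fstl1.S by 0.51 ± 0.13, adjusted p = 0.00422. The median difference of all models, Ueno minus Taira, was -0.34 and moved to -0.09 with median-of-ratios scaling (10 higher and 22 lower) and to -0.00 with quantile normalization (15 higher and 13 lower). Those counts are of members, and over all 28171 tested models they were 4449 and 6594, then 4997 and 5160. By stage, the median difference over members was -0.07 at stage 8, -0.22 at stage 10.5, -0.77 at stage 20 and -0.59 at stage 35. A clutch label stands for its parents and for the dataset it came from, which cannot be told apart.

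The oocyte libraries, 1 per class and from the Ueno set, are described without a test. Of 114 members 48 reached 1 TPM in an oocyte library and 36 reached 5 TPM. In classes 1-2, 3-4 and 5-6, 38, 45 and 44 members were at 1 TPM or more. Of all 45831 models, 15470, 17649 and 17744 were. The values below are in the order of classes 1-2, 3-4 and 5-6. bmp15.L stood at 61.5, 111 and 92.8 TPM, above all 21 staged libraries. smad6.L stood at 142, 122 and 204 TPM, smad6.S at 31.9, 78.4 and 94.7 TPM and smad4.2.S at 78.9, 63.1 and 98 TPM, each with at least 1 class above all staged libraries. smad1.L was at 2.62, 6.1 and 18.6 TPM, below both eggs, and gdf9.L at 19.3, 45.9 and 34.6 TPM. szl.L, a gastrula transcript in the staged series, was at 23.2, 16.5 and 25.7 TPM in oocytes and 2.13 and 0.33 TPM in eggs. acvr2b.S was at 9.65, 1.28 and 6.08 TPM in oocytes and 18.6 and 26.8 TPM in eggs. The second Ueno series, also with 1 library per stage, had gdf3.1 at 388 TPM and szl.L at 317 TPM at stage 10. In its stage 35 library szl.L was at 2.82 TPM and fstl1.S at 339.5 TPM.

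Other genes of the pathway were read from a list of 89 symbols, of which 61 had a model, with 116 models and 106 of them tested. The list was chosen with earlier results of these data known, and the alternatives were not run on it. Models of the same gene are not independent. The shares of all models are given as background, and whether the list differs from them was not tested. Target genes on the list were called higher already before gastrulation, and more of them at its onset. From stage 8 to 9, 7 of 28 tested target models rose and 0 fell, against 1.13% and 0.00355% of all models. From stage 9 to 10.5, 18 of 28 rose and 2 fell, against 6.34% and 9.38% of all models. msx1.L, a homeobox gene activated by Bmp, rose by 5.55 ± 0.29, from 1.28 and 0.72 TPM to 74.8 and 112 TPM. ventx1.2.S, a ventral homeobox gene, rose by 4.64 ± 0.37, from 4.95 and 3.72 TPM to 105 and 165 TPM. dlx3.S, an epidermal homeobox gene, rose by 5.53 ± 0.27, and the pseudoreceptor bambi.L rose by 1.86 ± 0.36, from 65.8 and 83.2 TPM to 189 and 388 TPM. id2.S fell by 1.12 ± 0.22. cer1.S, an antagonist of Nodal, Wnt and Bmp, rose by 6.6 ± 0.45, from 2.16 and 0.81 TPM to 266 and 199.8 TPM. From stage 8 to 9, 8 of 18 other ligands rose and 0 fell (limma), against 1.13% and 0.00355% of all models, among them admp.L, an organizer Bmp ligand, which rose by 2.73 ± 0.55 from 2.04 and 0.09 TPM to 16.5 and 7.35 TPM. From stage 10.5 to 15, 13 of 18 other ligands fell and 1 rose, against 32.4% and 17.9% of all models. Of the 28 target models 5 fell and 12 rose in this interval. From stage 15 to 25, 9 target models fell and 1 rose, against 7.14% and 12% of all models. From stage 25 to 35, 15 of 28 target models fell and 0 rose, against 19.4% and 9.01%. ventx1.2.S fell by 3.95 ± 0.37 in that last interval, from 13.4 and 15.6 TPM to 0 and 0 TPM. Over the whole list of 106 tested models, 29 rose and 0 fell from egg to stage 8, against 32.8% and 3.71% of all models. From stage 8 to 9, 17 rose and 0 fell, against 1.13% and 0.00355%, and from stage 9 to 10.5, 32 rose and 13 fell, against 6.34% and 9.38%. From stage 10.5 to 15, 25 rose and 40 fell, against 17.9% and 32.4%, and from stage 15 to 25, 9 rose and 19 fell, against 12% and 7.14%. From stage 25 to 35, 4 rose and 30 fell, against 9.01% and 19.4%.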

How the data were processed

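The series holds 28 libraries of polyadenylated RNA, and 22 of them are eggs and staged embryos of 2 clutches. Per the submitters' processing notes the tools were BWA 0.7.10 and RSEM 1.2.19, and per the labels reads were aligned to a transcript set. Other settings are not given in the sources used here. The deposited values are TPM from the authors, scaled to sum to 1000000 per library, with no read counts, so depth is unknown and no counting interval is given.

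From these, log2(TPM + 1) was fitted in limma 3.58.1 (R 4.3.3) with stage and clutch, trended variance and 9 residual degrees of freedom, over 21 libraries and the 28171 models at 1 TPM or more in at least 2 of them. p-values are two-sided and adjusted (Benjamini-Hochberg) within each test. L to S ratios were fitted likewise, without the trend, for pairs with a summed 2 TPM in at least 2 libraries. Figures used Python 3.11.15 and matplotlib 3.10.9. The procedure was tested on simulated data.

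Libraries of one clutch deviated together: over 45 pairs of stages, the correlation of the Ueno minus Taira differences had a median of 0.416 (0.170 to 0.879), so the clutch label was taken as pairing the samples.

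Genes named were the member with the highest mean of each role, the up to 4 largest called rises and falls per comparison (same direction in both clutches, mean of at least 5 TPM in the higher stage), and the copies of central pathway genes. Others were named after their values were seen. The members and lists were chosen with earlier results of these data known. Of the 114 names, 86 are RefSeq symbols.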

Additional observations from a re-analysis of the deposited data

How the results depend on the processing

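Counts of called members moved by over 1.5 times in some comparisons. From stage 8 to 9 the count of 2 became 1 with a pseudocount of 5, no filter, either other scaling, no replicate block, the library labelled stage 40 Ueno, or any library left out (1 to 1). From stage 9 to 10.5 it became 11 without the replicate block and 13 with stage 40 Ueno, from stage 15 to 25 it became 6 and 5, and from stage 25 to 35 it became 8 and 8, or 18 with a pseudocount of 5. The clutch count became 28 with quantile normalization. Leaving out 1 library gave 10 to 21 calls from stage 9 to 10.5, 7 to 17 from stage 15 to 25 and 7 to 23 from stage 25 to 35. Between egg and stage 8 the sign turned for acvr1b.L (-0.12) and smad9.L (-0.17) with median-of-ratios scaling, and for bmp2.L (-0.053) and acvr1b.L (-0.10) with quantile normalization. The cause was not tested. Without read counts, depth cannot be given, and with 2 clutches an absent call does not show that a member stayed the same. Alternatives were not run on the list of other pathway genes.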
